A study of Homo sapiens with 11 samples.

Results

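The genes described here are 5 enzymes of NADPH supply in the cytosol, PGD, TALDO1, TKT, ME1 and IDH1, taken by name from a table of 38021 genes. All 5 passed the filter on low counts. They were read in HEK293T cells, an established line from human embryonic kidney, in 11 conditions after 6 h. The vehicle was 0.1% DMSO. Thapsigargin (Tg), an inhibitor of the SERCA calcium pumps that brings on stress of the endoplasmic reticulum (ER), was given at 500 nM. AA147 was given at 10 µM, and AA132 at 0.1, 0.3, 1, 3, 6, 10, 15 and 30 µM. Both are small molecules studied as activators of the unfolded protein response, the transcriptional response to ER stress. All groups share 1 wild-type cell line and 1 time point. The labels list 1 sample a condition, but 3 columns numbered within each condition stand in the table and were taken as libraries (n = 3). They do not say whether these came from separate cultures, so the p-values measure only the spread between these columns, which may be technical.

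NADPH is the electron donor for fatty acid and nucleotide synthesis and for the enzymes that keep glutathione and thioredoxin reduced. In the oxidative branch of the pentose phosphate pathway, PGD reduces NADP+ to NADPH as it turns 6-phosphogluconate into a pentose phosphate. ME1 makes NADPH in the cytosol by converting malate to pyruvate, and IDH1 makes it by converting isocitrate to 2-oxoglutarate. The label of NADPH producers holds for PGD, ME1 and IDH1 only: transaldolase (TALDO1) and transketolase (TKT) belong to the non-oxidative branch, which rearranges sugar phosphates and reduces no NADP+ itself. Several of these genes are known targets of NRF2, a transcription factor that binds antioxidant response elements.

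Promoter sequences from RefSeq (GRCh38.p14) are shown for the member that was higher at high AA132 doses (ME1), the member with the opposite dose slope (TALDO1) and the member with the largest fall under Tg (PGD). The windows searched were the 250 bases before the RefSeq start, from which positions are counted back, and they are shown 5′ to 3′ on the gene's strand, up to the first exon that GENCODE v44 places there. The ME1 window is at chr6:83431052-83431301 (minus strand), the TALDO1 stretch at chr11:747214-747414 (plus strand) and the PGD stretch at chr1:10398814-10399043 (plus strand). Capitals mark matches on either strand to the antioxidant response element (TGACNNNGC), the AP-1 element (TGACTCA), the ER stress response element (CCAAT and CCACG with 9 bases between) and the CCAAT box (CCAAT).
ME1: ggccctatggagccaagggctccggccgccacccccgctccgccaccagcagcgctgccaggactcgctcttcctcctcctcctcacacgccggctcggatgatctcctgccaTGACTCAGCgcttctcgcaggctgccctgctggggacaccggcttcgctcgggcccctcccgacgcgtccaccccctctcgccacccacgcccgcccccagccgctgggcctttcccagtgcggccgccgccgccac
TALDO1: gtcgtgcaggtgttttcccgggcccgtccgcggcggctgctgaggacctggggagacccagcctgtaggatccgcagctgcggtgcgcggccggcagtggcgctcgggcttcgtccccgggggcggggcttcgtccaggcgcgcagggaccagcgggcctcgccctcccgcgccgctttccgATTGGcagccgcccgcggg
PGD: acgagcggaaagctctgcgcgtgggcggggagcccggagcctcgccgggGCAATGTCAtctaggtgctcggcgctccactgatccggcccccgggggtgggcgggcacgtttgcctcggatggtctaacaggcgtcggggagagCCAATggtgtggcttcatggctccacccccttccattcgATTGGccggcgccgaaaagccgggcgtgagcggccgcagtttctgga
The ME1 window holds TGACTCAGC at bases 137 to 129 before the start. It matches the antioxidant response element, and its first bases are also the match to the AP-1 element. The PGD window holds an antioxidant response match on the other strand, GCAATGTCA, at bases 201 to 193, and CCAAT matches at 106 to 102 and, on the other strand, at 67 to 63. Of the 2 IDH1 windows, the one at chr2:208255072-208255321 (minus strand) holds TGACTCCGC at bases 143 to 135. The PGD window and the IDH1 windows lie inside the bounds that GENCODE v44 gives these genes. Their RefSeq starts are therefore not the outermost GENCODE starts. No antioxidant response match lies in the windows of TALDO1 or TKT, and each of these holds 1 CCAAT match on the other strand. None of the members' windows holds the ER stress response element. Over all 35116 windows of this length, 10.9% hold the antioxidant response pattern, 4.2% the AP-1 pattern, 32% CCAAT and 0.074% the ER stress response pattern. A match describes the letters in a window and does not show binding.

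Library totals ran from 32265437 to 37958306 counts, and the lowest total was that of AA132 10 µM library 3. Between columns of the same condition, the chi-square per degree of freedom ran from 4.48 to 59.4 (median 7.56 over 33 pairs), where counting error alone would give about 1. Vehicle library 1 stood furthest from the others of its condition, at 59.4 and 46.2 against libraries 2 and 3, which differed from each other by 7.47. AA132 10 µM library 1 (36.1 and 33.7) and AA147 library 1 (23.0 and 22.2) came next. All 6 HEK293T markers were detected, with PAX2 lowest at 0.407 to 1.53 CPM (counts scaled to library size with TMM factors). Of 9 markers of other cell types, COL1A1 was at 19.7 to 49.9 CPM and the other 8 reached at most 0.218 CPM, with APOA2 at 0 in all 33 libraries.

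Vehicle library 1 bears on the members because every comparison with vehicle uses it. Relative to the mean of the other vehicle libraries on the log2 scale, its TALDO1 was 0.40 higher, its TKT 0.26 higher and its PGD 0.17 higher. Its ME1 and IDH1 lay on the other side, at -0.22 and -0.14. It thus held the highest vehicle value of the 3 pentose phosphate enzymes and the lowest of ME1 and IDH1. Values without it are given beside many, though not all, of the comparisons with vehicle that it moves.

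In vehicle, the 5 members fell into 2 tiers. Per kilobase of the canonical transcript, TALDO1 stood at 196 ± 33.3, PGD at 191 ± 13.3 and TKT at 146 ± 15.6 CPM per kb (SD, n = 3). IDH1 stood at 33.8 ± 1.98 and ME1 at 27.3 ± 2.32 CPM per kb. In GENCODE v44 on GRCh38, PGD lies at chr1:10398592-10420511 (plus strand), TALDO1 at chr11:747415-765012 (plus), TKT at chr3:53224712-53256052 (minus), ME1 at chr6:83210402-83431051 (minus) and IDH1 at chr2:208236229-208266074 (minus). The antisense gene IDH1-AS1 overlaps IDH1 but reached at most 0.600 CPM, and a pseudogene not named in the table overlaps ME1. The lowest count of any member in any library was far above the filter, and the median spread between libraries of a condition was 2.33% for TKT to 4.10% for IDH1 (coefficient of variation).

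**Figure D1:**
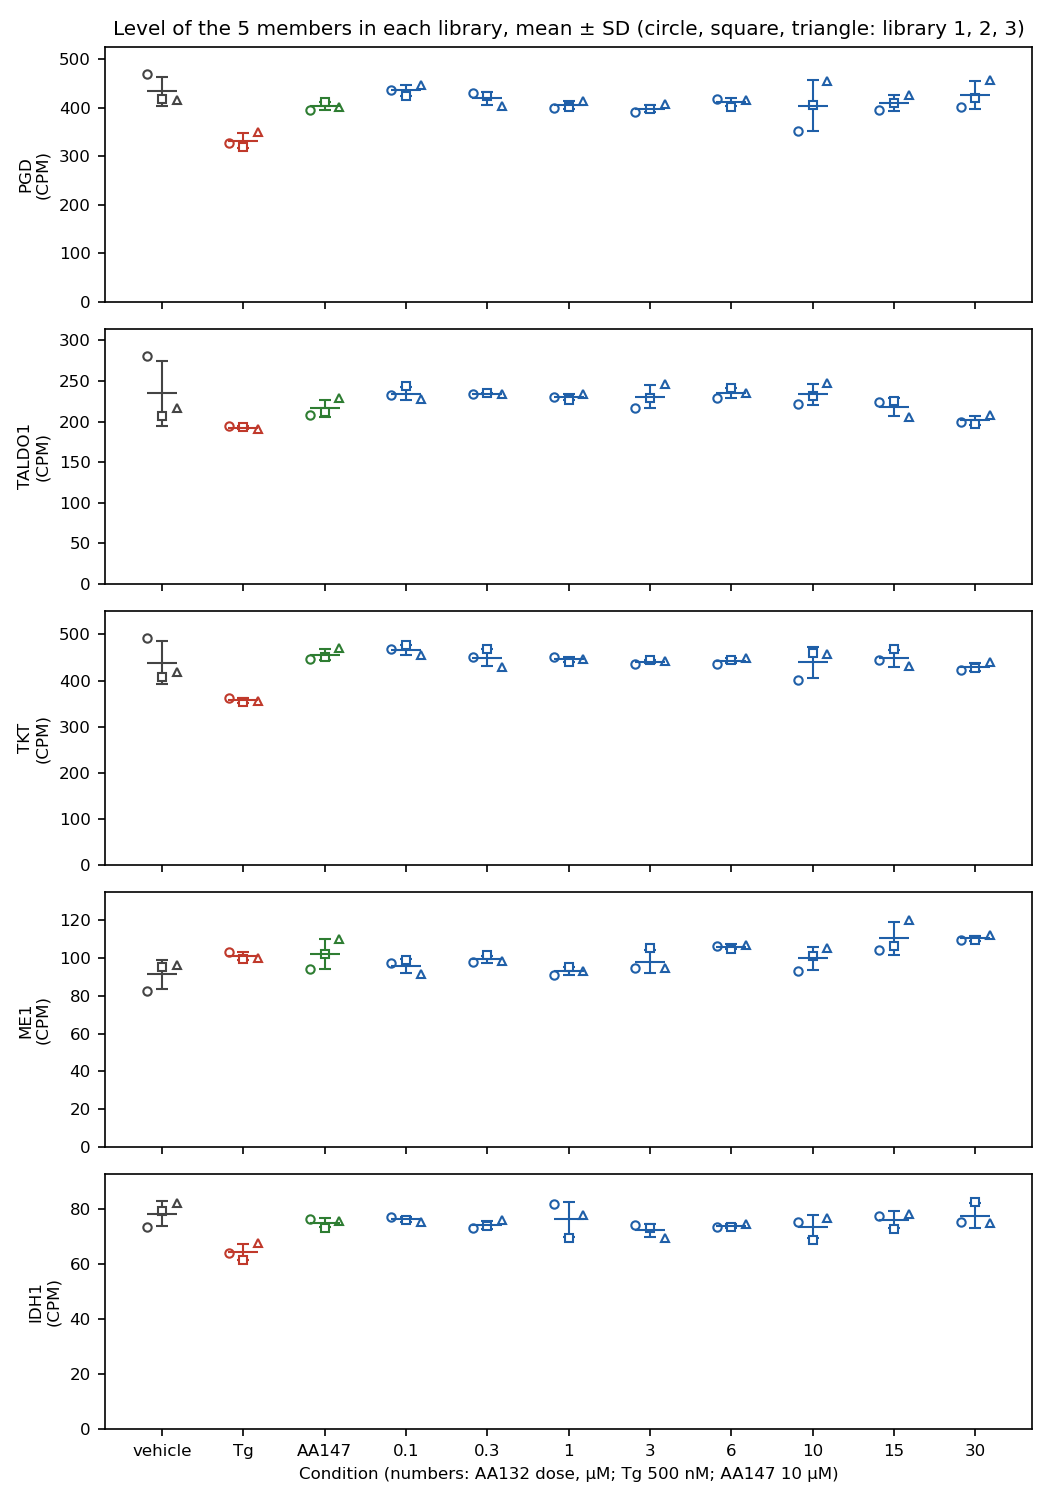
Level of each member (vertical axis, CPM from 0) in each of the 11 conditions (horizontal axis); open symbols are the 3 libraries, and the bar is the mean with its SD. Tg is the lowest condition for PGD, TALDO1, TKT and IDH1, ME1 is highest at AA132 15 and 30 µM, and vehicle library 1 (circle) is the highest vehicle library for PGD, TALDO1 and TKT.

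Under Tg, PGD, TALDO1, TKT and IDH1 fell and ME1 did not, so that 4 of 5 members were called, all lower (edgeR adjusted p under 0.05). Of all 17793 genes tested, 31.2% were called and 15% were called lower, so a call under Tg is common in itself. The median log2 fold change was -0.29 over the members and 0.00 over all genes. The falls were small, between 17.8% and 23.4% of the vehicle level. PGD, the member that makes NADPH within the pentose phosphate pathway, read 469, 418 and 415 CPM in vehicle libraries 1 to 3 and 328, 319 and 350 CPM under Tg. Every Tg library lay below every vehicle library, and PGD fell by 0.39 on the log2 scale (SE 0.07, adjusted p = 2.64e-05). It was the largest fall among the members.

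The non-oxidative enzymes were lower as well. TKT read 492, 407 and 417 CPM in vehicle and 363, 353 and 356 CPM under Tg, without overlap, a fall of 0.30 on the log2 scale (SE 0.06, adjusted p = 0.000184). TALDO1 read 281, 207 and 217 CPM in vehicle and 194, 193 and 190 CPM under Tg. The Tg libraries were below all vehicle libraries, and TALDO1 fell by 0.29 (SE 0.07, adjusted p = 0.00247). That size depends on vehicle library 1: without it the TALDO1 difference was -0.15 with an adjusted p of 0.0598. It was called again (adjusted p = 0.0341) when the 3 libraries that stood apart were all left out, a step chosen after seeing the data, and was not called when only Tg and vehicle entered the fit (-0.29, adjusted p = 0.116).

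The cytosolic dehydrogenases parted under Tg. IDH1 read 73.4, 79.3 and 82.4 CPM in vehicle and 64.0, 61.7 and 67.6 CPM under Tg, again without overlap, and it fell by 0.28 (SE 0.06, adjusted p = 0.000675). ME1 read 82.3, 95.1 and 96.3 CPM in vehicle and 103, 99.3 and 100.02 CPM under Tg. Its Tg libraries all lay above the vehicle libraries, a separation that 38.2% of all genes showed in this comparison, but the log2 difference of 0.14 (SE 0.07) did not pass the test (adjusted p = 0.101). Without vehicle library 1, the ME1 difference was 0.07 (adjusted p = 0.482), while the differences of PGD, TKT and IDH1 were -0.33, -0.21 and -0.33 and still passed (adjusted p at most 0.00304). The calls for these 3 genes held in all 33 fits that left out 1 library.

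All samples are bulk RNA of 1 cell line, in which fewer cells of a kind and less RNA per cell cannot be told apart. The summed level of the 6 HEK293T markers was also lower under Tg, at 943 to 985 CPM against 1363 to 1665 CPM in vehicle. Most of this sum is VIM, at 702 to 1555 CPM over all libraries. Of the 6 markers, 1 was called higher and 2 were called lower. The summed level of the 9 markers of other cell types, nearly all COL1A1, was 19.8 to 20.4 CPM under Tg against 40.0 to 49.9 CPM in vehicle. The part of these shifts in the members' result was not tested.

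With AA147 at 10 µM, no member was called, against 0.0225% of all genes. ME1 alone had an unadjusted p under 0.05. Its libraries read 94.3, 102 and 110 CPM, overlapping vehicle at the upper end, with a log2 difference of 0.16 (SE 0.07, adjusted p = 0.647). TALDO1 and PGD differed from vehicle by -0.12 and -0.11, IDH1 by -0.06 and TKT by 0.06. The 95% intervals of these 4 differences lay between -0.27 and 0.18. When vehicle library 1 was left out, TALDO1 turned to 0.03, PGD was at -0.04, IDH1 at -0.10, TKT at 0.15 and ME1 at 0.09, with no member called. DESeq2 also called no member.

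With AA132, ME1 was higher than vehicle at the top doses and no other member was called at any dose. At 0.1, 0.3 and 1 µM, 0 of 5 members passed and 0% of all genes were called. At 3 µM (0.118% of genes called), 6 µM (1.07%) and 10 µM (1.41%), no member passed either. At 15 µM (2.76% of genes called) and at 30 µM (7.05%), 1 member passed, ME1, which was higher; 1.97% and 3.86% of all genes were called higher at these doses. At an unadjusted p under 0.05, ME1 also passed at 6 µM and TALDO1 at 30 µM.

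ME1, the malate-using source of NADPH, read 110, 109 and 112 CPM at 30 µM, above all vehicle libraries (82.3 to 96.3 CPM). It was higher by 0.27 on the log2 scale (SE 0.07, adjusted p = 0.00917), that is by 20.8% with a 95% interval of 9.99% to 32.7%. At 15 µM the libraries read 104, 106 and 120 CPM, also all above vehicle, with the same log2 difference of 0.27 (adjusted p = 0.0178). The groups thus did not overlap at either dose, a separation that 18.9% and 16.1% of all genes showed. At 6 µM ME1 read 106, 105 and 107 CPM and differed by 0.21 (adjusted p = 0.128, and 0.0369 by DESeq2), or by 0.15 without vehicle library 1. At 10 µM, between these doses, its libraries at 92.8, 101 and 105 CPM overlapped vehicle, with a difference of 0.13 (adjusted p = 0.426), or 0.06 without vehicle library 1. The order of doses was therefore not even, and the lowest 10 µM value came from library 1, one of the columns that stood apart.

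The ME1 call at 30 µM held in all 33 fits that left out 1 library, with adjusted p from 0.00542 to 0.0389; the highest was the fit without vehicle library 1, where the log2 difference was 0.20. It was lost when only vehicle and 30 µM entered the fit (adjusted p = 0.262). The 15 µM call was lost without vehicle library 1 (0.20, adjusted p = 0.0812), without 15 µM library 3 (0.21, adjusted p = 0.148) and with only those conditions in the fit (adjusted p = 0.495). The HEK293T markers, again mostly VIM, summed to 1271 to 1385 CPM at 30 µM, against 1363 to 1665 CPM in vehicle. Of them, 1 was called higher and 1 lower, and their part in the ME1 result was not tested.

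TALDO1 was the member whose level under AA132 ended lowest against vehicle. At 30 µM it read 199, 197 and 208 CPM, which overlapped the vehicle range of 207 to 281 CPM only at its upper end, and the log2 difference of -0.22 (SE 0.07) missed the threshold (adjusted p = 0.0583). It passed with DESeq2 (adjusted p = 0.0278), with library totals in place of TMM (0.0461), without vehicle library 2 (-0.31, adjusted p = 0.00772), without vehicle library 3 (-0.28, 0.0310) and without AA132 10 µM library 1 (0.0471). Without vehicle library 1 the difference was -0.07 (adjusted p = 0.491). At the other doses TALDO1 stayed between 205 and 247 CPM in every library. Its differences from vehicle at 0.1 to 10 µM, all within 0.03 of 0, were 0.12 to 0.15 without vehicle library 1, with none called.

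PGD, TKT and IDH1 showed no called difference at any AA132 dose. PGD lay at 351 to 458 CPM, TKT at 401 to 477 CPM and IDH1 at 69.0 to 82.8 CPM over the 24 AA132 libraries. Their largest differences from vehicle were -0.12 for PGD and for IDH1, both at 3 µM, and 0.09 for TKT at 0.1 µM. Without vehicle library 1 these were -0.07, -0.16 and 0.18, TKT lay above vehicle by 0.06 to 0.18 at all doses, and PGD and TKT turned to 0.03 and 0.06 at 30 µM. None of these was called. At 30 µM the 95% intervals ran from -0.16 to 0.11 for PGD, from -0.15 to 0.09 for TKT and from -0.14 to 0.12 for IDH1. With the 3 libraries that stood apart left out together, TKT was called at 10 µM (0.16, adjusted p = 0.0465), where all the data gave 0.00. That was the only member call added at any AA132 dose by that step, and the ME1 calls at 15 and 30 µM were kept (adjusted p = 0.0287 and 0.0130).

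**Figure D2:**
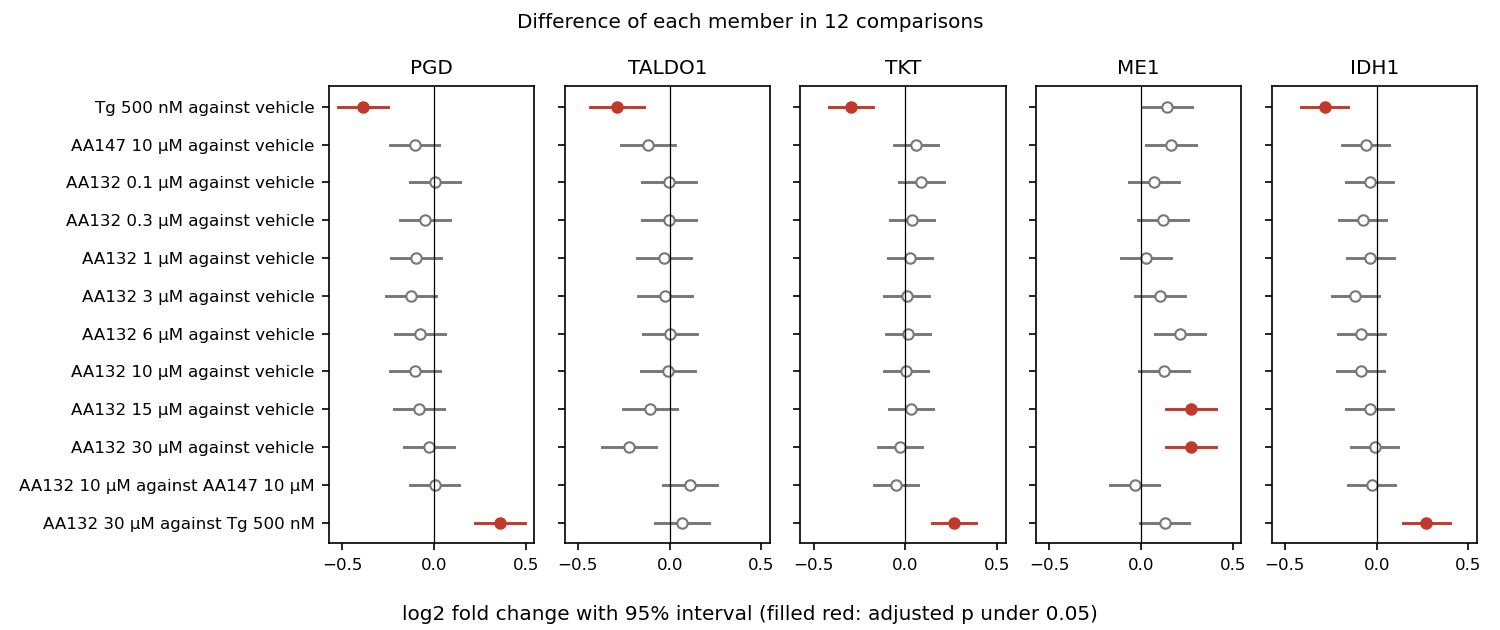
Log2 fold change of each member (horizontal axis) in 12 comparisons (rows), with its 95% interval; filled red points passed the edgeR test. The calls lie in the Tg row for PGD, TALDO1, TKT and IDH1, in the AA132 15 and 30 µM rows for ME1, and in the last row, AA132 30 µM against Tg, for PGD, TKT and IDH1.

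The slope on log10 dose over the 24 AA132 libraries uses no vehicle library. ME1 rose by 0.08 on the log2 scale per 10-fold dose (SE 0.02, adjusted p = 0.00452), and TALDO1 fell by 0.06 (SE 0.02, adjusted p = 0.0444). These 2 of 5 members stand beside 18.7% of 17554 genes called, 9.83% with a rising and 8.89% with a falling slope. The ME1 slope passed in all 24 fits that left out 1 AA132 library, and the TALDO1 slope in 11 of 24. Without 30 µM the TALDO1 slope shrank to -0.02 (adjusted p = 0.499), while that of ME1 was 0.07 and just missed the threshold (adjusted p = 0.0513). PGD, TKT and IDH1 had slopes of -0.02, -0.03 and 0.00 (adjusted p = 0.586, 0.154 and 0.939).

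The ratio of ME1 to TALDO1 within a library needs no scaling between libraries. The pair was chosen because its slopes differ in sign, so the ratio describes the same values and adds no support. Vehicle held 29.3, 45.9 and 44.4 ME1 counts per 100 TALDO1 counts, the first value again from library 1. AA132 gave 40.9 ± 0.82 at 0.1 µM, 45.0 ± 1.45 at 6 µM and 54.7 ± 0.83 at 30 µM (SD, n = 3). All 3 libraries at 30 µM, at 54.9, 55.4 and 53.8, were above every vehicle library. At 15 µM the libraries read 46.6, 47.3 and 58.6, so the mean of 50.8 was raised by library 3. Tg gave 53.1, 51.5 and 52.6, also above every vehicle library, where TALDO1 was lower and ME1 was not called. These ratios were not tested.

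**Figure D3:**
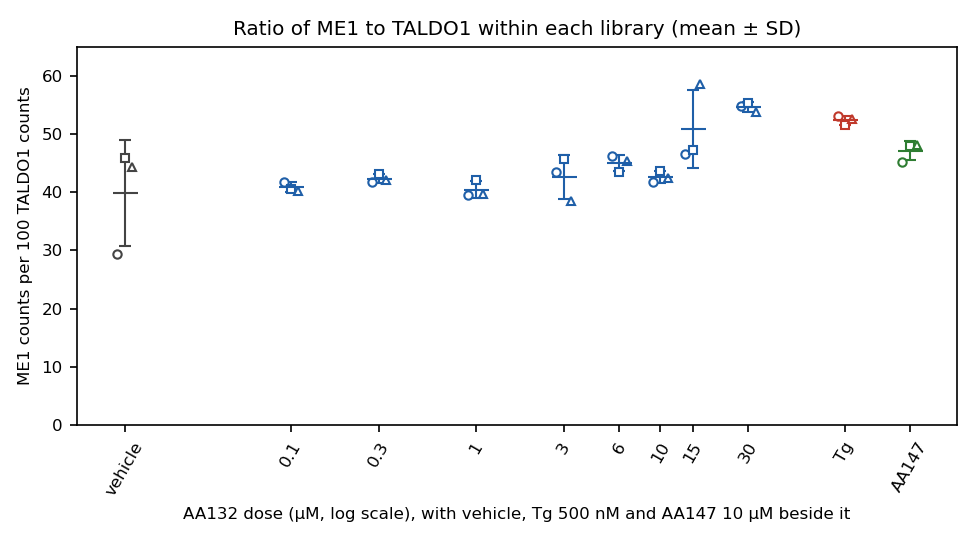
ME1 counts per 100 TALDO1 counts in each library (vertical axis from 0) against AA132 dose on a log scale, with vehicle, Tg and AA147 beside it; symbols are libraries and bars the mean with its SD. The ratio is 54.7 at 30 µM and 52.4 under Tg, and vehicle library 1 lies apart at 29.3.

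At the 1 dose shared by AA132 and AA147, 10 µM, no member differed between the compounds by the edgeR test or DESeq2, and 0.0674% of all genes were called. This was the 1 pair of compounds compared at a matched dose. The log2 difference, AA132 minus AA147, was 0.11 for TALDO1 (95% interval -0.04 to 0.26), 0.00 for PGD (-0.13 to 0.14), -0.05 for TKT (-0.17 to 0.07), -0.04 for ME1 (-0.17 to 0.10) and -0.03 for IDH1 (-0.16 to 0.10). None of the 5 had an unadjusted p under 0.05. The intervals allow differences of up to about 0.26 on the log2 scale.

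Between AA132 at 30 µM and Tg at 500 nM, whose doses differ, 3 of 5 members were called, all higher with AA132, while 29.8% of all genes were called and 14.3% were called higher. PGD was higher by 0.36 (SE 0.07, adjusted p = 7.67e-05), TKT by 0.27 (adjusted p = 0.000711) and IDH1 by 0.27 (adjusted p = 0.00113). The libraries of the conditions did not overlap for any of the 5 members, as for 46.8% of all genes. ME1 differed by 0.13 (adjusted p = 0.148) and TALDO1 by 0.07 (adjusted p = 0.544). ME1 passed in this comparison with library totals (0.0379), with only these conditions in the fit (0.0394) and without the 3 libraries that stood apart (0.0351).

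Of 6 other enzymes of the pentose phosphate pathway, TKTL2 was not tested. Of the others, 1 was called higher under Tg (16.2% of all genes) and 2 lower (15% of all genes), with a median of -0.04. Without vehicle library 1, 2 were called higher (H6PD and PGLS, the latter named after its values were seen) and 1 lower (RPIA), with a median of -0.15. RPIA, the ribose phosphate isomerase, read 37.4, 40.8 and 36.3 CPM in vehicle and 31.9, 31.7 and 33.8 CPM under Tg, without overlap, and fell by 0.23 (adjusted p = 0.0160) and kept its call without vehicle library 1 (adjusted p = 0.0153), but lost it without Tg library 2 or vehicle library 2 and with only Tg and vehicle in the fit (adjusted p = 0.105). H6PD, the enzyme of the ER lumen that carries out the first steps of the same route there, read 8.37, 11.5 and 11.4 CPM in vehicle and 13.3, 15.4 and 16.0 CPM under Tg. Its groups did not overlap either, and it rose by 0.51 (SE 0.14, adjusted p = 0.00351), or by 0.37 without vehicle library 1 (adjusted p = 0.0401). TKTL1, named after its values were seen, was under 1 CPM and fell by 0.99 (adjusted p = 0.0430, but 0.107 without vehicle library 1, 0.0511 by DESeq2 and 0.0646 with only Tg and vehicle).

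None of these pathway enzymes was called by edgeR or DESeq2 with AA147, at any AA132 dose or in the dose slope, and at most 1 had an unadjusted p under 0.05 in any of them. At AA132 30 µM, H6PD differed from vehicle by 0.14 (adjusted p = 0.599) and RPIA by -0.13 (adjusted p = 0.330). Leaving out the 3 libraries that stood apart gave 1 called lower at 10, 15 and 30 µM and in the slope, each time the epimerase RPE, named after its values were seen.

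Of 11 other NADP-linked dehydrogenases and NAD kinases, 6 were called higher under Tg, 0 lower and 5 not called (median 0.43), where 16.2% of all genes were called higher. Without vehicle library 1, 4 were called higher and 1 lower. MTHFD2, a mitochondrial folate enzyme, rose from 218 ± 7.43 to 694 ± 20.7 CPM (SD, n = 3), by 1.67 on the log2 scale (SE 0.06, adjusted p = 5.73e-21). RNA counts do not show which cofactor MTHFD2 used, so its rise is not a reading of NADPH production. ALDH1L1 rose by 0.74 (adjusted p = 0.0125), a call lost without Tg library 1 or vehicle library 2. ALDH1L2, at 2.55 CPM under Tg, rose by 1.02 (adjusted p = 0.0128), a call lost without vehicle library 1 (0.61, adjusted p = 0.111). Both release NADPH in folate oxidation. IDH2, the mitochondrial counterpart of IDH1, read 44.9, 32.7 and 39.6 CPM in vehicle and 52.9, 51.4 and 53.2 CPM under Tg and rose by 0.43 (adjusted p = 6.90e-05); it was named after its values were seen. IDH1 and IDH2 were thus called in opposite directions under Tg.

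With AA132, edgeR called 1 of these 11 genes, MTHFD2, at 10, 15 and 30 µM each. At 6 µM it called none, with 3 at an unadjusted p under 0.05, and MTHFD2 was called there by DESeq2 and without the 3 libraries that stood apart. With only the conditions compared in the fit, it was called at 30 µM and not at 10 or 15 µM. MTHFD2 rose by 0.39 at 10 µM (adjusted p = 0.000108) and by 0.57 at 30 µM (adjusted p = 7.66e-08), reaching 323 ± 5.03 CPM. IDH2 differed by -0.05 at 30 µM (adjusted p = 0.785). Of 6 NAD-linked counterparts, MDH1 fell under Tg by 0.24 (adjusted p = 0.0127) and differed by -0.21 without vehicle library 1 (adjusted p = 0.0481). IDH3G fell at AA132 30 µM by 0.30 (adjusted p = 0.0259), a call lost without vehicle library 1 (-0.16, adjusted p = 0.194) and without 30 µM library 1 or 2.

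**Figure D4:**
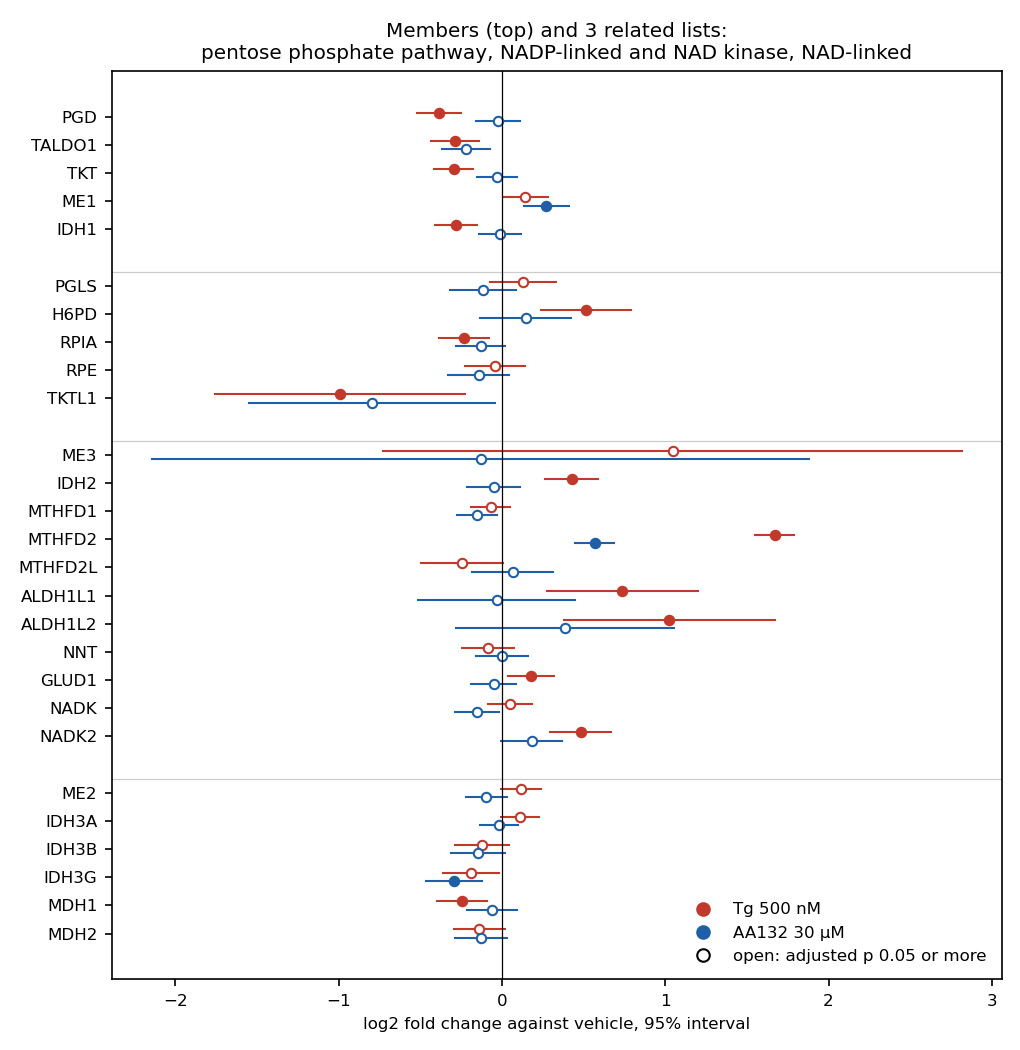
Log2 fold change against vehicle (horizontal axis, bars are 95% intervals) of the members and of 3 lists of related enzymes, under Tg (red) and AA132 30 µM (blue); filled points passed the edgeR test. MTHFD2 is the largest called rise under both treatments, at 1.67 and 0.57, and the only called member at 30 µM is ME1.

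Enzymes that spend NADPH, and NRF2 target genes, were read beside the members. Of 9 NADPH-using reductases, 3 were called higher at AA132 30 µM and none lower, where 3.86% of all genes were called higher. TXNRD1, the thioredoxin reductase, read 429, 477 and 429 CPM there against 212, 273 and 260 CPM in vehicle and rose by 0.84 (SE 0.10, adjusted p = 7.39e-07). NQO1, a quinone reductase, rose by 0.61 (adjusted p = 0.00617), or by 0.78 without vehicle library 1, and its call was lost without vehicle library 3. GSR, which reduces glutathione, rose by 0.21 (adjusted p = 0.0235), a call lost in 4 of 33 fits that left out 1 library, among them that without vehicle library 1 (0.18, adjusted p = 0.0576). Under Tg, 1 reductase was called higher and 3 lower, where 16.2% of all genes were called higher and 15% lower. TXNRD1 rose by 0.37 (adjusted p = 0.00408), or by 0.26 without vehicle library 1 (adjusted p = 0.0475). CBR1 fell by 0.42 and GSR by 0.36 (adjusted p = 5.04e-05 and 1.12e-05). Without vehicle library 1 the counts were 1 higher and 2 lower under Tg, and 4 higher at 30 µM.

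All 8 NRF2 reporter genes, which include NQO1 and TXNRD1, were called higher at AA132 30 µM with a median of 1.23, and ME1 at 0.27 was the only member called beside them. HMOX1 (heme oxygenase) rose by 3.94, SLC7A11 (the cystine transporter) by 2.77 and OSGIN1 by 2.15. At 6, 10 and 15 µM, 6, 7 and 7 of the 8 were called higher by edgeR, with 1, 2 and 6 when only the conditions compared entered the fit (and 6 at 30 µM). With AA147, edgeR called none of the 8 and DESeq2 called 2 of the 7 it tested, GCLM and HMOX1, named after their values were seen, while 7 had an unadjusted p under 0.05. Under Tg, 6 of 8 were called higher (median 0.53), in the comparison in which 4 members fell and 16.2% of all genes were called higher. Without vehicle library 1, 5 of the 8 were called higher (median 0.41). The largest called rise of the 8 under Tg was that of SLC7A11, at 3.65 on the log2 scale. Whether NRF2 acted under Tg was not tested. The 3 reporters of the unfolded protein response, HSPA5, DNAJB9 and DDIT3, were all called higher under Tg (median 3.52) and at AA132 30 µM (median 1.34) by edgeR, with 2 of 3 at 30 µM when only the conditions compared entered the fit. With AA147, edgeR called none of the 3, all 3 had an unadjusted p under 0.05, and HSPA5 was called by DESeq2 and without the 3 libraries that stood apart.

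Across the 11 condition means, PGD, TKT and IDH1 followed each other, TALDO1 followed them less closely, and ME1 followed none of the others. Pearson's r was 0.95 between PGD and IDH1, 0.88 between PGD and TKT and 0.84 between TKT and IDH1. TALDO1 followed TKT with r of 0.75, PGD with 0.64 and IDH1 with 0.50. ME1 had r from -0.49 (with TALDO1) to -0.06 (with IDH1). These values describe 11 means that share libraries and are shaped by the single Tg condition, which was lowest for PGD, TALDO1, TKT and IDH1 and did not overlap the next lowest condition in any of these genes. For TALDO1, the next lowest was AA132 30 µM, at 201 ± 5.49 CPM against 192 ± 2.06 CPM under Tg. For ME1, no condition was apart from its neighbours in the order, which ran from 91.2 ± 7.74 CPM in vehicle to 110 ± 1.33 CPM at AA132 30 µM.

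By the same measure, ranked over 14598 genes, genes with a pattern like that of PGD included UBA1 (r = 0.98) and MXRA7 (0.97). TALDO1 was most like SSB (0.98), HMGB3 and HAUS7 (both 0.97), whose log2 differences from vehicle at AA132 30 µM were -0.23, -0.38 and -0.31. TKT was most like CAPRIN1 and PSMD3 (both 0.99) and G3BP1 (0.98). IDH1 was most like CYB5R3, WRAP53 (both 0.97) and PIAS4 (0.96). ME1 was most like P4HA2 (0.95), EPHB4 (0.94) and PDX1 (0.93), and PDX1 averaged only 1.07 CPM. The likeness was not tested.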

How the data were processed

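RNA sequencing of HEK293T cells gave 1 table of expected counts per gene, made and deposited by the authors; per the file headers they are total reads on a linear scale, and their column sums differ, so they are not scaled to a common total. The build was GRCh38.p7, per the submitters' processing notes; the aligner, counter, annotation and use of strand are not given in the sources used here. The lowest value, 0.009, was set to 0, expected counts were rounded, and 98 entries sharing 45 names were summed. All 33 columns were mapped to the 11 conditions by name.

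edgeR 4.0.16 in R 4.3.3 (quasi-likelihood test, TMM, filter on low counts, 17793 genes, all conditions in 1 fit, no replicate block) gave log2 fold changes, with Benjamini-Hochberg adjustment over all genes tested and calls under 0.05. CPM values are means ± SD of TMM-scaled counts, with 32265437 to 37958306 counts a library. The common coefficient of variation of the fit was 9.09%. Counting error depends on the count of each gene and weighs more in genes with few counts, such as TKTL1 with 12 counts in Tg library 1. The test was also run on simulated counts. Its recovery of changes as small as those of the members is not reported here. Alternatives were DESeq2 1.42.0, other scaling, no filter, only the conditions compared, a replicate block, a minimum fold, other dose terms, leaving out each library and, chosen after seeing the data, leaving out the 3 libraries that stood apart (vehicle, AA132 10 µM and AA147, each library 1).

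All 5 members are named. From each list, genes called in Tg, AA147, or AA132 at 10 or 30 µM against vehicle with at least 1 CPM in the higher group were named if among the 3 largest changes. Genes most like a member are the 3 with the highest Pearson correlation of mean log2 CPM over the 11 conditions. Some genes under these rules are not reported here. Members and lists were chosen with earlier results of these data known.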

Additional observations from a re-analysis of the deposited data

How the results depend on the processing

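Of the members' fold changes refitted under alternatives other than leaving out 1 library, 446 kept their side of the threshold, 7 passed only under the alternative, 7 passed only in the reported fit, and no called change turned direction. Where a call also needed a log2 change of at least 1 in size, 0 members were called under Tg, at AA132 15 and 30 µM, in AA132 30 µM against Tg and in the dose slope, since no member moved that far. DESeq2 called 1 member at 6 µM (ME1) and 2 at 30 µM; library totals gave 2 at 30 µM. With only the conditions compared in the fit, 0 were called at 15 and at 30 µM, and all genes called at 30 µM went from 1255 to 74. Such a fit has fewer libraries to estimate the spread. Between AA132 30 µM and Tg, where no vehicle library enters, it called 6238 genes in place of 5305. Why calls against vehicle were lost in this fit was not tested. Leaving out the 3 libraries that stood apart gave 1 at 10 µM (TKT). For the dose slope, no filter gave 1, log2(1 + dose) with vehicle gave 1 and leaving out 30 µM gave 0. Leaving out each library gave 3 to 4 members under Tg, 0 to 1 at 15 µM, 1 to 2 at 30 µM, 3 in AA132 30 µM against Tg and 1 to 2 for the slope, and 0 in the other comparisons. With a replicate block, which the column numbers do not justify, the counts were 4 under Tg, 1 at 15 µM, 1 at 30 µM, 3 against Tg and 2 for the slope, as without it. Deviations of same-numbered columns from their condition means correlated with a median of 0.03 (other numbers -0.02), 40% of same-number pairs exceeded 0.1, and 8 of 30 libraries correlated best with the vehicle library of their number. The number of all genes called moved by over 1.5 times too. DESeq2 gave 30 with AA147 (4 in the reported fit), and, at 3, 6, 10 and 15 µM, 71, 344, 492 and 807 (21, 190, 250 and 491). Only the conditions compared gave 3073 under Tg (5551) and 25, 8 and 46 at 6, 10 and 15 µM; without the 3 libraries there were 351, 1084, 1394, 1145 and 2716 from 3 to 30 µM. The log2 minimum of 1 gave 796 under Tg, 87 at 30 µM, 641 against Tg (5305) and 16 for the slope (3286), no filter gave 82 with AA147 and 153, 360 and 411 from 3 to 10 µM, and the slope without 30 µM gave 2046. Leaving out 1 library gave 700 to 2017 genes at 30 µM, the highest without vehicle library 1. The cause was not tested. With library totals the median log2 change of all genes was -0.03 under Tg and 0.03 in AA132 30 µM against Tg, in place of 0.00 and -0.01. Where an interval given spans 0, differences within it, in either direction, were not excluded here.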
